A study of Caenorhabditis elegans with 48 samples.

Results

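The lysozymes, saposin-like proteins and lysosomal proteases of *C. elegans* were taken as every gene whose name is *lys-*, *ilys-*, *spp-*, *asp-*, *cpr-* or *cpl-* followed by a number, which gave 73 of the 19885 genes quantified. They comprised 10 *lys-*, 6 *ilys-*, 31 *spp-*, 17 *asp-*, 8 *cpr-* and 1 *cpl-* genes. RNA of whole adults of the strain JDW259 was sequenced every 2 h from CT1 to CT23, where CT is circadian time in hours, in constant conditions after temperature cycles. Each of the 12 time points had 2 culture plates per condition, mock and K-NAA, which gave 24 libraries each and 48 in all. The comparison between the conditions addresses the role of the nuclear receptor NHR-23 in daily transcription.

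All worms of both conditions carried the same genotype. It holds a transgene in which the *eft-3* promoter, active in most somatic tissues, drives TIR1, the plant F-box protein that targets degron-tagged proteins, with F2A and the blue fluorescent protein mTagBFP2. It also holds *nhr-23* fused to the auxin-inducible degron AID*, a TEV site and 3xFLAG (allele kry61). K-NAA is an auxin analog that recruits the tagged protein to TIR1. Plates with K-NAA held 0.4 mM according to the labels, to which worms were moved 12 h ahead of sampling by the labels and ahead of its start by the study's methods. The methods name a single time of transfer for the whole series, by which the time on K-NAA lengthened from CT1 to CT23. Within K-NAA this time and the circadian time cannot be told apart. Both conditions were fed NA22 *E. coli* and had passed over plates with FUdR, which blocks the growth of offspring. No library came from worms without the degron on K-NAA, so that effects of the compound and of the loss of NHR-23 cannot be told apart. The *nhr-23* mRNA had a level of 34.0 ± 3.16 TPM in the 24 mock and 31.6 ± 1.86 TPM in the 24 K-NAA libraries (mean ± SD, as throughout), and since the degron acts on the protein this level does not check the depletion.

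These families hold digestive and antibacterial proteins of a worm that lives on bacteria. Lysozymes cut the peptidoglycan of the bacterial wall, with the *lys-* genes of the protist type and the *ilys-* genes of the invertebrate type. Saposin-like proteins, or caenopores, bind membranes and open pores in them, and the aspartic (*asp-*) and cathepsin B-like (*cpr-*) and L-like (*cpl-*) cysteine proteases break down protein in lysosomes and in the gut lumen. Many are known to be made in the intestine, though whole worms give no measurement of the tissue. All 12 intestine markers were present, and their levels summed to 395 ± 39.6 TPM in mock and to 405 ± 31.6 TPM with K-NAA (SD over 24 libraries). In RNA of whole worms, fewer cells of a type and less RNA per cell cannot be told apart.

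The lengths of the annotated proteins differed between and within the families. The longest coding region of each gene in the WBcel235 annotation encodes 213 to 300 residues in the *lys-* family, 72 to 158 in *ilys-*, 89 to 428 in *spp-*, 222 to 443 in *asp-* and 325 to 378 in *cpr-*, and 336 in *cpl-1*. Chromosome V holds 32 of the 73 genes, X 16, IV 15, I 5, II 3 and III 2. In 12 places 2 or more members are directly adjacent among protein-coding genes, which covers 35 members. The largest such run has 5 saposin-like genes, *spp-3*, *spp-2*, *spp-6*, *spp-4* and *spp-5*, on X from 7314969 to 7320354. Reads of near-identical neighbours may be split between them by the quantification, so that the values of adjacent family members carry this uncertainty.

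The families spanned a wide range of levels. Levels are given in TPM, a unit that corrects for transcript length and scales each library to the same total, so that genes can be compared with each other. Of the 73 members, 21 averaged 100 TPM or more over the 48 libraries, 27 lay between 1 and 100 TPM and 25 were under 1 TPM. Together they took 0.887% of all TPM in mock and 1.07% in K-NAA. The genes *asp-18*, *asp-19* and *ilys-6* were listed at 0 in all 48 libraries. The tests used the 54 members that averaged 0.25 TPM or more, out of 13813 such genes.

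**Figure D1:**
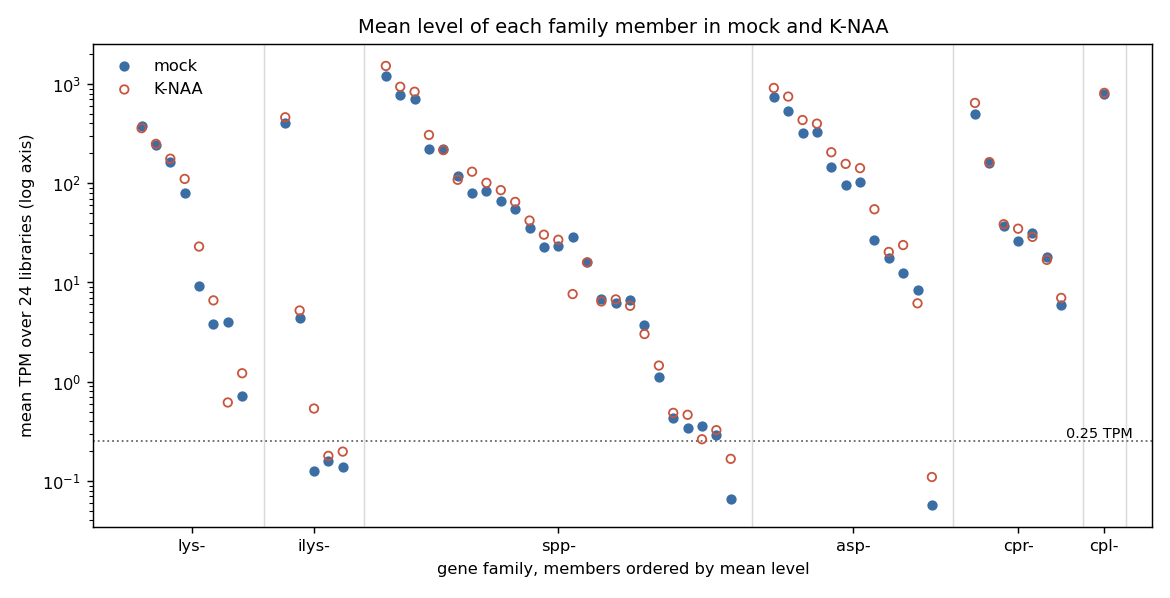
Mean TPM over 24 libraries (log axis) of each member that averaged 0.1 TPM or more in either condition, in mock (filled) and K-NAA (open), by family and ordered by level. The dotted line marks the 0.25 TPM needed for the tests, and the highest members are *spp-5*, *spp-14*, *asp-6* and *cpl-1*.

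A few members made up most of each family's level. The caenopore gene *spp-5*, whose product kills bacteria in the gut, was highest of all with 1206 ± 170 TPM in mock, and it gave 33.5% of the *spp-* level over the 48 libraries. *spp-14* (775 ± 138 TPM) and *spp-17* (706 ± 119.5 TPM) followed. Among the proteases the leaders were the cathepsin L gene *cpl-1* (800 ± 51.7 TPM), *asp-6* (735 ± 65.02 TPM), the intestinal aspartic protease gene *asp-1* (534 ± 49.4 TPM) and the cathepsin B-like *cpr-6* (500 ± 48.3 TPM; SD in mock, n = 24 for each). One gene, *ilys-5*, gave 98.8% of the *ilys-* level, whereas *lys-2*, the highest *lys-* gene, gave 40.7% of that family.

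In K-NAA, 29 of the 54 tested members were higher and 4 were lower than in mock. The share called higher was 53.7%, where 9.48% of all 13813 tested genes were called higher, and the share called lower was 7.41%, where 19.8% of all genes were called lower. The members were chosen with earlier results of these data known, so that these shares are a description only. Calls are at an adjusted p under 0.05 from limma on log2(TPM + 0.5), with the time point as a factor and Benjamini-Hochberg adjustment over all tested genes. The median log2 fold change was 0.23 over the 54 members and -0.020 over all genes. The 29 higher members had log2 fold changes from 0.098 to 1.15 with a median of 0.39, and 11 of them were higher in K-NAA at all 12 time points. The log2(TPM + 0.5) scale understates the change of low genes. The all-gene counts were 1309 higher and 2741 lower as deposited and 2082 higher and 2045 lower after median ratio rescaling of the libraries, while the members gave 29 and 4 under both. Without replicate 1, which leaves 24 libraries, 15 members were higher and 2 lower, with 5.54% of all genes called higher and 23.4% lower. Without replicate 2 the members gave 25 and 4, with 11.4% of all genes called higher and 8.73% lower. One of the 29, *ilys-3*, reached the 0.25 TPM minimum through K-NAA alone, and without it 28 of 53 were higher.

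**Figure D2:**
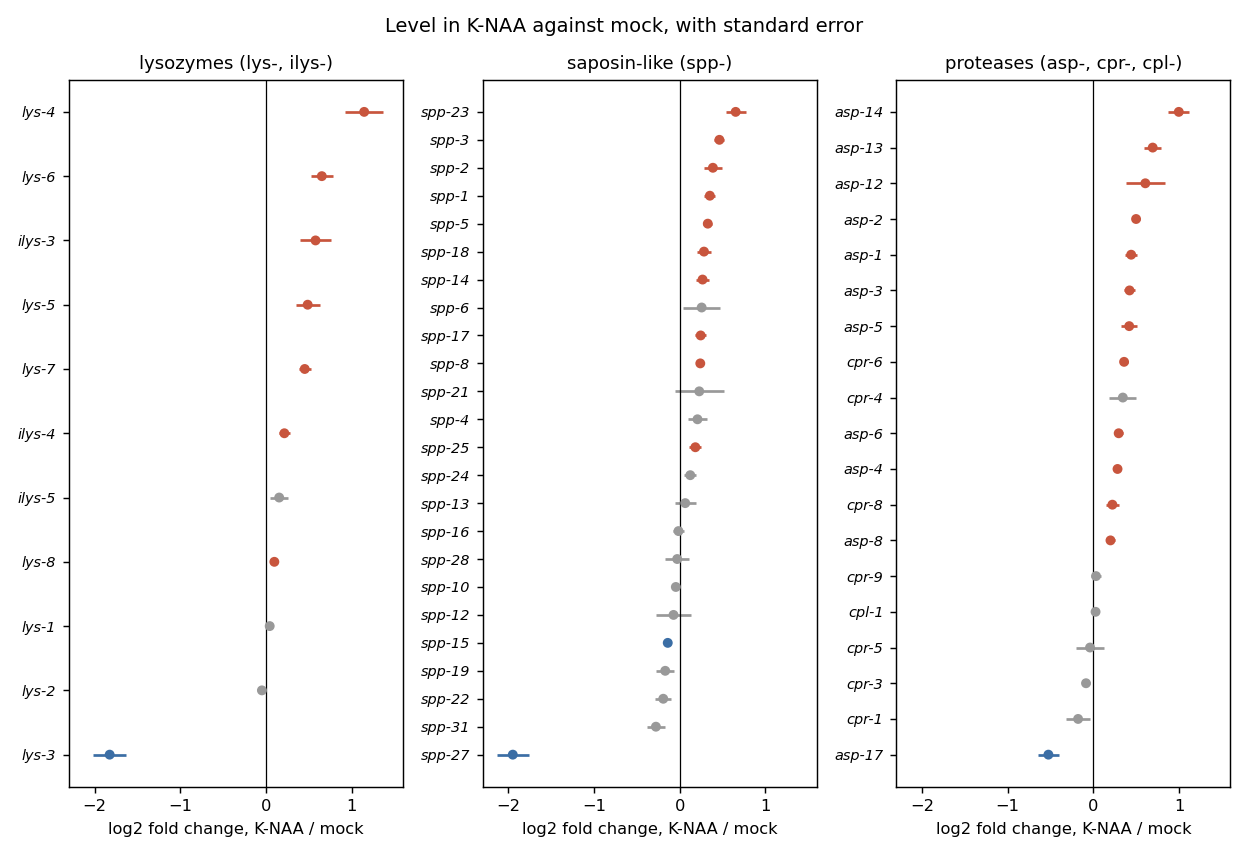
Change from mock to K-NAA (log2 fold) of the 54 tested members, with the standard error from limma as a bar, for lysozymes, saposin-like genes and proteases. Red marks the 29 members called higher, blue the 4 called lower and grey the 21 not called.

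Most aspartic protease genes were higher. Of the 11 tested *asp-* genes 10 were called higher and 1 lower, where 9.48% of all genes were called higher and 19.8% lower. The summed level of the family went from 2326 ± 169 TPM in mock to 3100 ± 539 TPM with K-NAA (SD over 24 libraries). *asp-2* ranged from 121 to 164 TPM in mock with a median of 143, and from 168 to 271 TPM in K-NAA with a median of 197. The conditions did not overlap, and the log2 fold change was 0.50 (standard error 0.042, adjusted p = 4.2e-12 from limma). Among all tested genes, 0.0652% were without overlap in this direction. *asp-2* lies on V from 9203077 to 9204734 on the plus strand, and no other member adjoins it.

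*asp-14*, on X from 6444185 to 6446664, changed most among the proteases. It ranged from 13.02 to 40.8 TPM in mock with a median of 28.1, and from 23.2 to 85.6 TPM in K-NAA with a median of 55.1. The conditions overlapped, but 19 of the 24 K-NAA libraries lay above the highest mock library. The log2 fold change was 0.997 (standard error 0.12, adjusted p = 3.1e-08 from limma), with K-NAA higher at 12 of the 12 time points.

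*asp-13* ranged from 48.7 to 154 TPM in mock (median 93.9) and from 76.7 to 218 TPM in K-NAA (median 173), up by 0.69 on the log2 scale (SE 0.098, adjusted p = 6.8e-07 from limma). *asp-1* ranged from 445 to 622 TPM in mock (median 535) and from 502 to 1121 TPM in K-NAA (median 687), up by 0.44 (SE 0.073, adjusted p = 1.0e-05 from limma). For each of these genes 14 of the 24 K-NAA libraries were above the highest mock library. The cathepsin D-like genes *asp-3* and *asp-4*, known for their part in necrotic cell death, averaged 319 and 328 TPM in mock against 433 and 399 TPM with K-NAA, with log2 fold changes of 0.42 and 0.28 (adjusted p = 1.5e-06 and 1.2e-09 from limma). *asp-6* had a log2 fold change of 0.30 (adjusted p = 4.8e-05 from limma), and *asp-5* and *asp-8* were also called higher.

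The call of *asp-12* was marginal. It ranged from 6.15 to 20.96 TPM in mock (median 10.8) and from 4.86 to 58.5 TPM in K-NAA (median 16.9), and the log2 fold change was 0.61 (standard error 0.23, adjusted p = 0.039 from limma). Its highest time points in K-NAA were CT23, with a mean of 53.8 TPM, and CT9 with 49.02 TPM, while CT7 and CT19 had 6.14 and 7.14 TPM. The call was lost without CT23 (log2 fold change 0.42, adjusted p = 0.16) or without CT9 (0.48, adjusted p = 0.13), and in 19 of the 48 limma fits that left out a single library, with log2 fold changes of 0.52 to 0.59 and adjusted p from 0.053 to 0.070. *asp-12* lies between *asp-6* and *asp-5* on V, and all 3 of these genes were called higher.

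*asp-17* was the 1 aspartic protease gene called lower. It ranged from 5.01 to 12.1 TPM in mock (median 8.26) and from 3.25 to 16.5 TPM in K-NAA (median 4.94). The conditions overlapped, with 13 K-NAA libraries below the lowest mock library and 2 above the highest. The log2 fold change was -0.52 (standard error 0.12, adjusted p = 0.0012 from limma), and -0.26 (adjusted p = 0.31) without replicate 1. The 2 K-NAA plates differed, with a mean of 4.50 TPM in replicate 1 and 7.83 TPM in replicate 2, which was the higher at 11 of the 12 time points. On V it shares a run of 4 genes with *asp-16*, *asp-15* and *asp-1*, of which *asp-1* was called higher and the others were under the minimum level.

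Among the cysteine proteases fewer members changed. Of 7 tested *cpr-* genes 2 were called higher and 5 were not called, where 9.48% of all genes were called higher and 19.8% lower. *cpr-6*, a cathepsin B-like gene, ranged from 406 to 578 TPM in mock (median 504) and from 449 to 735 TPM in K-NAA (median 670). There 18 K-NAA libraries lay above the highest mock library, and the log2 fold change was 0.36 (standard error 0.048, adjusted p = 2.0e-07 from limma). *cpr-8*, which adjoins *cpr-5* on V, was higher by 0.22 on the log2 scale (adjusted p = 0.032).

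The other high cysteine protease genes were not called. *cpl-1*, needed for yolk processing in embryos, was at 800 ± 51.7 TPM in mock and at 814 ± 49.8 TPM with K-NAA (SD over 24 libraries), a log2 fold change of 0.026 with a standard error of 0.026. *cpr-9* was 158 ± 18.9 and 163 ± 29.4 TPM, and *cpr-5* 37.4 ± 13.01 and 38.6 ± 16.9 TPM. The log2 fold change of *cpr-9* was 0.031 with a standard error of 0.057. That of *cpr-5* was -0.039 with a standard error of 0.16, so that a change of the size of *cpr-6* was harder to see in this gene.

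Among the lysozymes the 1 gene called lower was *lys-3*, and the other calls were higher. The shares of the *lys-* family were 62.5% higher and 12.5% lower, where 9.48 and 19.8% of all genes were called. Of 8 tested *lys-* genes 5 were called higher and 1 lower, and of 3 tested *ilys-* genes 2 were called higher, 1 of them *ilys-3*. *lys-4* ranged from 3.72 to 18.9 TPM in mock (median 8.44) and from 3.95 to 45.0 TPM in K-NAA (median 22.7), and 13 K-NAA libraries were above the highest mock library. The change of 1.15 on the log2 scale (SE 0.22, adjusted p = 9.1e-05 from limma) was the largest increase among the members called. K-NAA was higher at 11 of the 12 time points. At CT7 and CT19 the K-NAA means were 5.36 and 7.94 TPM, against 43.2 TPM at CT9.

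*lys-4*, *lys-5* and *lys-6* lie side by side on IV from 11621429 to 11627947, and all 3 were called higher. *lys-6* ranged from 1.94 to 6.32 TPM in mock (median 3.64) and from 2.35 to 11.6 TPM in K-NAA (median 6.23), up by 0.65 on the log2 scale (SE 0.13, adjusted p = 0.00015 from limma). *lys-5* had means of 0.711 and 1.22 TPM. Without replicate 1 the calls of *lys-4* (0.88, adjusted p = 0.14) and *lys-6* (0.53, adjusted p = 0.11) were lost.

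The neighbours *lys-1*, *lys-2* and *lys-3* on V, from 10277904 to 10283544, differed among themselves. *lys-3* ranged from 0.474 to 10.7 TPM in mock (median 3.29) and from 0.0798 to 1.25 TPM in K-NAA (median 0.529). In 22 mock libraries it was above the highest K-NAA library, and it was lower in K-NAA at all 12 time points (log2 fold change -1.82, standard error 0.19, adjusted p = 9.3e-10 from limma). *lys-2*, at 375 ± 66.5 TPM in mock and at 359 ± 28.5 TPM with K-NAA, and *lys-1*, at 241 ± 20.3 and 249 ± 21.97 TPM, were not called (adjusted p = 0.51 and 0.40).

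*lys-7*, an intestinal lysozyme gene known from infection studies as a target of DAF-16, ranged from 47.0 to 129 TPM in mock (median 78.6) and from 47.0 to 195 TPM in K-NAA (median 108). The ranges overlapped, and the log2 fold change was 0.45 (standard error 0.071, adjusted p = 3.7e-06 from limma), with K-NAA higher at all 12 time points. Its K-NAA mean was 97.4 TPM in replicate 1 and 124 TPM in replicate 2. *lys-8* was called at a small size, 165 ± 16.8 TPM in mock and then 177 ± 18.5 TPM (log2 fold change 0.098, adjusted p = 0.028).

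Of the invertebrate-type lysozymes, the abundant *ilys-5* was not called. It ranged from 251 to 663 TPM in mock (median 386) and from 231 to 723 TPM in K-NAA (median 470), with a log2 fold change of 0.15 and a standard error of 0.10 (adjusted p = 0.28). *ilys-4*, at 4.38 ± 0.609 TPM in mock and at 5.22 ± 1.09 TPM with K-NAA, was higher (log2 fold change 0.22, adjusted p = 0.011). *ilys-3*, which is known to help digest bacteria, was listed above 0 in 8 of 24 mock and 16 of 24 K-NAA libraries and at most at 0.639 and 1.91 TPM. With means of 0.125 and 0.537 TPM it was tested only because of its level in K-NAA, so that its call (log2 fold change 0.58, adjusted p = 0.013) is given as a description.

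Of the 24 tested saposin-like genes 10 were called higher and 2 lower (41.7 and 8.33%), where 9.48% of all genes were called higher and 19.8% lower. *spp-5* ranged from 865 to 1639 TPM in mock (median 1204) and from 1099 to 2063 TPM in K-NAA (median 1518), and the log2 fold change was 0.33 (standard error 0.055, adjusted p = 1.0e-05 from limma). *spp-14* had a mean of 938 ± 191 TPM in K-NAA (log2 fold change 0.27, adjusted p = 0.0085) and *spp-17* one of 835 ± 120 TPM (0.25, adjusted p = 0.0027). All 3 ranges overlapped between the conditions.

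Larger changes lay at lower levels. *spp-23*, next to *spp-17* on I, ranged from 45.3 to 106 TPM in mock (median 77.1) and from 64.1 to 262 TPM in K-NAA (median 115.4), up by 0.65 on the log2 scale (SE 0.12, adjusted p = 3.9e-05 from limma). *spp-3* ranged from 156 to 284 TPM in mock (median 223) and from 234 to 403 TPM in K-NAA (median 294), up by 0.46 (SE 0.059, adjusted p = 7.6e-08). In the run of 5 genes on X, *spp-3*, *spp-2* and *spp-5* were called higher and *spp-4* and *spp-6* were not. *spp-10*, a prosaposin-like gene, had 223 ± 16.98 TPM in mock and 215 ± 12.03 TPM with K-NAA and was not called (log2 fold change -0.044, standard error 0.026).

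*spp-27* showed the largest change of all members. It ranged from 13.7 to 49.7 TPM in mock with a median of 27.1, and from 2.44 to 16.7 TPM in K-NAA with a median of 7.49. In 21 K-NAA libraries it was below the lowest mock library, so that the conditions overlapped in few libraries. The log2 fold change was -1.95 (SE 0.19, adjusted p = 1.5e-10 by limma), and K-NAA was the lower at all 12 time points. It lies on V from 6556653 to 6557135 on the minus strand, next to *spp-20*, *spp-26* and *spp-19*, of which *spp-19* was tested and not called. *spp-15* was also lower, at 118.8 ± 7.88 TPM in mock and at 108 ± 12.3 TPM with K-NAA (log2 fold change -0.14, adjusted p = 0.0039), and this call was lost without replicate 1 (-0.097, adjusted p = 0.16).

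**Figure D3:**
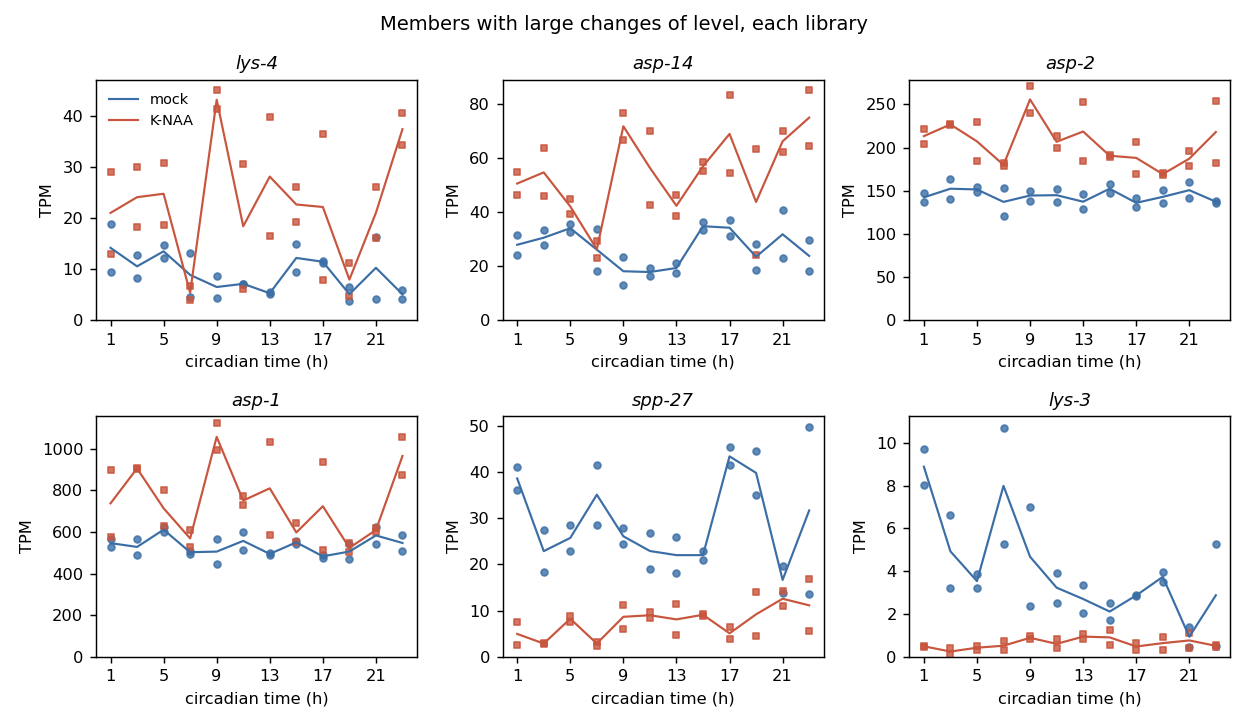
TPM of each library (points) and the mean of the 2 plates (lines) against circadian time in hours for *lys-4*, *asp-14*, *asp-2*, *asp-1*, *spp-27* and *lys-3*, in mock (blue) and K-NAA (red). The *asp-2* points of the conditions do not overlap. The K-NAA means of *lys-4* are lowest at CT7 and CT19, at 5.36 and 7.94 TPM, against 8.86 and 5.07 TPM in mock.

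Most members varied more over the K-NAA libraries than over the mock libraries. Of the 48 members that averaged 1 TPM or more, 38 had a larger coefficient of variation over the 24 K-NAA than over the 24 mock libraries, with medians of 22.1 and 17.96%. Over all 11210 genes at this level 39.5% did so, with medians of 11.54 and 13.2%. The summed level of the 73 members was 8875 ± 697 TPM in mock against 10694 ± 1343 TPM with K-NAA (SD over 24 libraries). Over the K-NAA libraries it ran from 8827 to 13444 TPM, with the lowest value at CT7 and the highest at CT13. By time point the K-NAA means were 8968 TPM at CT7, 12666 at CT9, 12254 at CT13, 9564 at CT19 and 12445 at CT23, whereas those of mock lay between 8000 at CT13 and 9852 at CT17.

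The same times stood out for many members. CT7 was the lowest K-NAA time point for 23 of the 54 tested members, against 13.8% of all genes, and CT9 was the highest for 18, against 9.77% of all genes. At both plates of CT7 the median member lay under its K-NAA mean, by -0.26 and -0.29 on the log2 scale, and 14 of 54 members were above it at each plate. The plates of CT9 were at 0.16 and 0.36, with 39 and 47 members above, and those of CT23 at 0.11 and 0.33. Plates of 1 time point also differed widely, with 0.064 and -0.15 at CT11, 0.051 and 0.31 at CT13 and 0.094 and -0.24 at CT17. The median over all genes stayed between -0.082 and 0.10 in these 24 libraries. Over pairs of members the median correlation of these deviations over 24 libraries was 0.23 in K-NAA and 0.095 in mock, a description only, since all members share each library and its composition.

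The difference between the conditions varied over the day accordingly. The median difference over the 54 members was 0.47 at CT9, 0.50 at CT13 and 0.52 at CT23 on the log2 scale, and -0.045 at CT7, where 23 members were higher in K-NAA. At CT9, CT13 and CT23, 43, 42 and 41 of the 54 members were higher. Of all tested genes 49.2, 42.5 and 39.4% were higher at these times and 35.2% at CT7. Without CT9, CT13 and CT23, a choice made after seeing these values, 19 members were called higher and 4 lower by limma, with 6.48 and 14.8% of all genes. Without CT7 and CT19 the counts were 28 and 6, with 8.69 and 16.5% of all genes. In the fit without CT9, CT13 and CT23 *asp-2* had a log2 fold change of 0.43 (adjusted p = 5.77e-10), *lys-4* one of 0.68 (adjusted p = 0.027), *asp-12* one of 0.13 (adjusted p = 0.74) and *asp-17* one of -0.41 (adjusted p = 0.0501).

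The summed levels of tissue markers at these times were set beside those of the members. For the intestine the level in K-NAA was 413 TPM at CT7 and 444 TPM at CT9, 408 TPM at CT13, 383 TPM at CT19 and 359 TPM at CT23. In K-NAA the hypodermis markers summed to 2733 TPM at CT7, 2188 at CT9, 2159 at CT13, 2258 at CT19 and 1925 at CT23, and those of body wall muscle to 1524, 1253, 1233, 1322 and 1157 TPM. As means of 2 plates, both sums were higher at CT7 and CT19, where the members were low, than at CT9, CT13 and CT23. At CT19 this rested on replicate 2, with 2572 TPM for hypodermis and 1456 TPM for muscle, against 1944 and 1188 TPM in replicate 1. The K-NAA replicate 2 library of CT17, with 9 of 54 members above their K-NAA mean, had 2063 and 1281 TPM. These times were picked after the members' values were seen. The hypodermis sum in K-NAA was also 2722 TPM at CT3 and 2558 TPM at CT5. There the median member lay at -0.073 and -0.018 on the log2 scale, against -0.28 at CT7. In mock the hypodermis sum was 2621 TPM at CT1 and 1636 TPM at CT23, with members' sums of 8384 and 8658 TPM. The part of these tissues in the members' values was not tested. The intestine sum lay between 321 and 457 TPM over the mock libraries and between 351 and 453 TPM over the K-NAA libraries. Of the 12 intestine markers 3 were called higher in K-NAA, among them *ftn-1*, and 2 lower, *ifp-1* and *pgp-1*, with a median log2 fold change of 0.011. Over all genes 9.48% were called higher and 19.8% lower. The transcription factor gene *elt-2*, which defines the tissue, had 12.4 TPM in mock and 13.1 TPM with K-NAA.

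**Figure D4:**
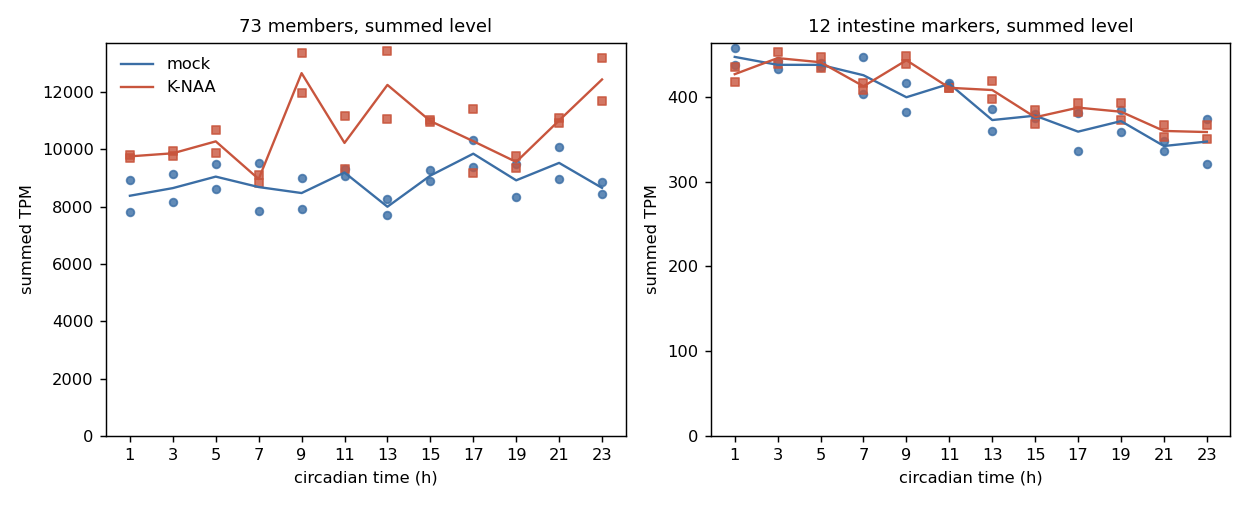
Summed TPM of the 73 members (left) and of 12 intestine markers (right) in each library (points), with the mean of the 2 plates (lines), against circadian time in hours, in mock (blue) and K-NAA (red). The members' sum in K-NAA averages 12254 to 12666 TPM at CT9, CT13 and CT23 and 8968 TPM at CT7, and that of the markers runs from 446 TPM at CT3 to 359 TPM at CT23.

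Marker lists of other tissues had calls in both directions, where 9.48% of all genes were called higher and 19.8% lower. Of the tested markers, 3 of 8 of the pharynx, 2 of 10 of body wall muscle and 2 of 6 of the hypodermis were called higher, while 2 of 12 neuron markers and 4 of 12 germline and oocyte markers were called lower and 1 of the latter higher. The 10 sperm, 7 embryo and 3 coelomocyte markers were not called by limma, with 1 of the embryo markers at an unadjusted p under 0.05. Over the mock and K-NAA libraries the summed levels ranged from 1451 to 2782 and from 1754 to 2922 TPM for the hypodermis list, from 33.4 to 50.5 and from 40.1 to 53.3 TPM for the pharynx, and from 6392 to 7625 and from 6333 to 7299 TPM for the germline and oocyte list.

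Genes of lysosomes outside the families had calls in both directions, where 9.48% of all genes were called higher and 19.8% lower. Of 41 genes of lysosomal membrane proteins and hydrolases 9 were called higher and 9 lower, with a median log2 fold change of -0.010. *gba-4*, a glucocerebrosidase homolog, rose from 11.3 to 22.1 TPM (log2 fold change 0.95, adjusted p = 4.9e-11 from limma), and its relative *gba-2* fell from 3.58 to 2.36 TPM (-0.51, adjusted p = 8.4e-08). The lysosomal lipase gene *lipl-5* rose from 93.0 to 132 TPM. Of the 21 subunits of the vacuolar ATPase, the pump that acidifies lysosomes, 9 were called lower and 2 higher (42.9 and 9.52%). Their changes lay between -0.14 and 0.099. *vha-4* fell from 205 to 191 TPM and *vha-18* from 71.6 to 64.96 TPM.

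Of 9 tested genes of other cysteine proteases and their cystatin inhibitors 3 were called higher and 6 were not called. For this list and those that follow, the shares over all genes were again 9.48% higher and 19.8% lower. The cathepsin Z gene *cpz-1* rose from 234.99 to 281 TPM (log2 fold change 0.26, adjusted p = 6.5e-07 from limma), *tag-196* from 30.4 to 34.1 TPM and the cystatin gene *cpi-1* from 383 to 432 TPM. Among 22 regulators of immunity and lysosomes, 2 were called higher and 7 lower. *tir-1*, the adaptor at the head of the p38 pathway, rose from 18.1 to 25.1 TPM (0.48, adjusted p = 2.6e-05) and *zip-2* from 187 to 213 TPM, whereas *atf-7* fell from 122.5 to 109 TPM. *hlh-30*, the TFEB homolog, was 24.9 and 24.8 TPM and was not called. Of 26 tested immune effectors outside the families 9 were called higher and 7 lower, and the galectin gene *lec-8* fell from 630 to 368 TPM (-0.78, adjusted p = 9.5e-16) while *clec-85* rose from 159 to 205 TPM and *dod-24* from 11.8 to 18.8 TPM.

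Daily rhythms of the members were read from a fit of a 24 h cosine to each condition. In mock 11 of the 54 members were called at an adjusted p under 0.30 by limma's F test, or 20.4%, where 11.7% of all genes were called. At 0.05 the count was 1, *lys-7*, and 1.12% of all genes. The fitted peak lay after CT12 in 8 of the 11 and before it in 3, and of the 1611 genes called in all it lay after CT12 in 934 and before it in 677. One day was sampled, so that a daily rhythm and a drift over the day cannot be told apart: with a linear drift in the model 0 members were called, with 0.0145% of all genes. With replicate 1 or 2 left out, at 12 libraries in the fit, the count was also 0, with 0.0941 and 0% of all genes.

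*lys-7* rose over most of the day in mock, from 47.5 TPM at CT1 and 61.4 at CT3 to 111 at CT19 and 81.7 at CT23 as means of 2 plates. The fit gave a peak-to-trough range of 0.74 on the log2 scale with a peak at CT16.1 (adjusted p = 0.025 by limma). The range was 0.69 without replicate 1 (adjusted p = 0.48 by limma) and 0.79 without replicate 2 (adjusted p = 0.46). It was 0.37 with a linear drift in the model (adjusted p = 0.62), and the call was lost in each of these fits. With K-NAA the fitted range was 0.57 with a peak at CT16.9 (adjusted p = 0.67), and the test of the difference between the conditions gave an adjusted p of 0.9999. Its level at CT1 was also lowest in K-NAA, at 70.8 TPM, and highest at CT23 with 154 TPM.

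Other members called in mock with late peaks were *cpr-1*, *spp-2*, *spp-1*, *asp-4* and *spp-15*. The gut cysteine protease gene *cpr-1* had its lowest mean of 20.3 TPM at CT9 and its highest of 45.2 TPM at CT17, a range of 0.83 peaking at CT18.2 (adjusted p = 0.058 from limma). The caenopore gene *spp-1* went from 49.4 TPM at CT1 to 84.0 TPM at CT17, a range of 0.50 (adjusted p = 0.066), and *spp-2* from 17.4 TPM at CT5 to 33.4 TPM at CT17, a range of 0.67 (adjusted p = 0.058). All 3 had their highest mean at CT17. With a drift in the model the ranges were 0.53 for *cpr-1*, 0.25 for *spp-1* and 0.61 for *spp-2* (adjusted p = 0.90, 0.86 and 0.76 from limma). Without replicate 1 they were 1.02, 0.57 and 0.83 (adjusted p = 0.45, 0.33 and 0.55 from limma). Without replicate 2 they were 0.64, 0.45 and 0.51 (adjusted p = 0.60, 0.68 and 0.57), so that all 3 calls were lost in each of these fits. *asp-4* had a range of 0.30 (adjusted p = 0.10) and *spp-15* one of 0.19 (adjusted p = 0.066).

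Earlier peaks were fitted for *lys-1* and *asp-17*. *lys-1* was 269 TPM at CT5 and 220 TPM at CT21, with a range of 0.21 and a peak at CT7.07 (adjusted p = 0.11 from limma). *asp-17* was 11.3 TPM at CT11 and 5.69 TPM at CT1, with a range of 0.56 and a peak at CT11.1 (adjusted p = 0.12), and its call was lost without CT11. *spp-18*, *ilys-5* and *lys-3* completed the 11.

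**Figure D5:**
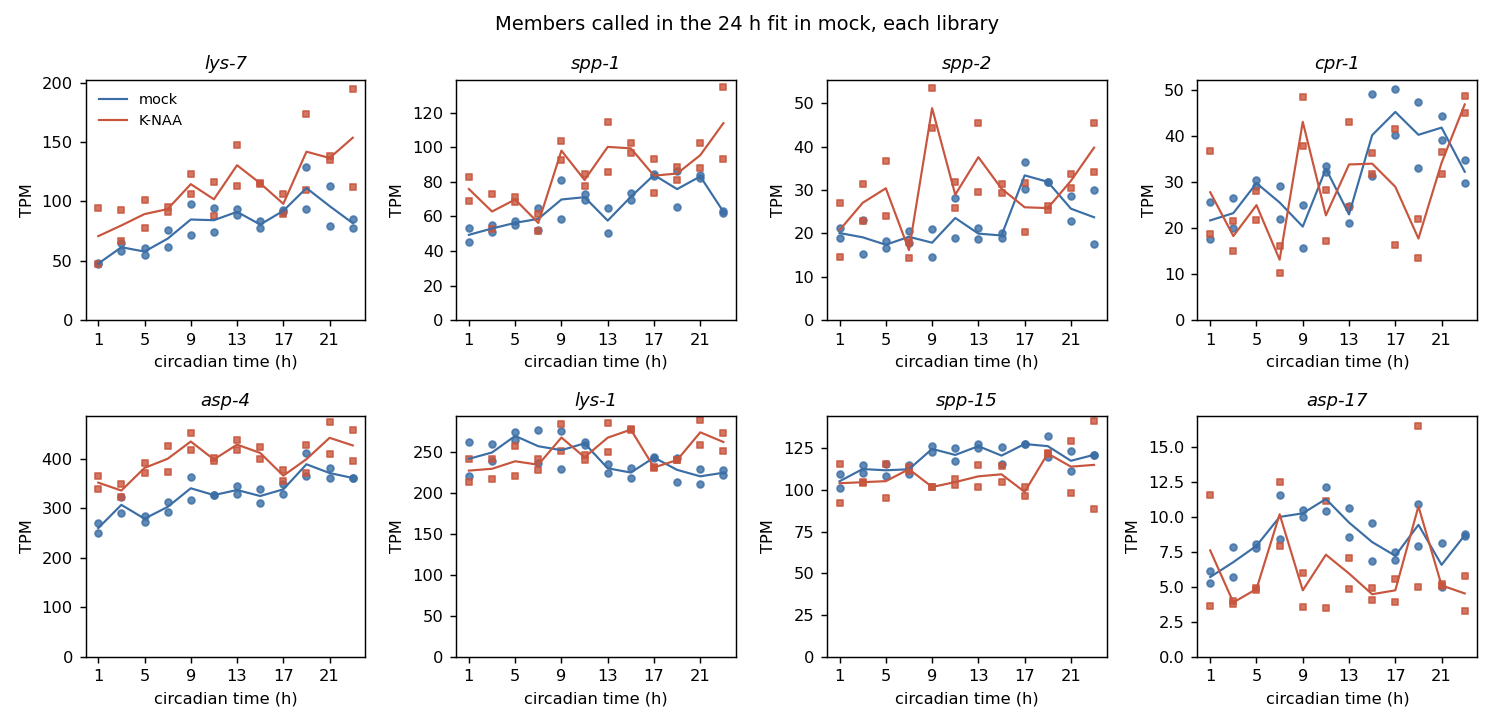
TPM of each library (points) and the mean of the 2 plates (lines) against circadian time in hours for 8 members called in the 24 h fit in mock, in mock (blue) and K-NAA (red). *lys-7* and *asp-4* climb from CT1 to CT19 in mock, and *lys-1* is highest at CT5.

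In K-NAA 0 of the 54 members were called at 0.30 by limma, where 0.746% of all genes were. An unadjusted p under 0.05 was found for 4 members (*cpl-1*, *spp-1*, *lys-7* and *lys-3*) and for 1005 of all 13813 genes, a similar share. A call in mock and none in K-NAA does not show a difference of rhythm. The test of that difference called 0 members, against 0.00724% of all genes (1 gene), with a smallest adjusted p of 0.77, that of *lys-1*. In this test the unadjusted p was under 0.05 for *lys-1*, *lys-3* and *spp-18* and for 667 of all 13813 genes, again a similar share. When the time points were entered as a factor, without a 24 h shape, 6 members were called in mock and 5 in K-NAA, with 1.75 and 1.43% of all genes. Leaving out CT23 gave 3 calls in the 24 h fit in K-NAA, with 3.38% of all genes.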

How the data were processed

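The authors quantified strand-specific paired-end reads of BGI libraries with Salmon against the *C. elegans* mRNA sequences of WormBase WS284 and deposited TPM values for 19885 genes in 48 libraries. The submitters' processing notes name the build ce10. The step from transcripts to genes is not described in the sources used here. Since TPM carry no depth, counting error is unknown, and precision comes from the spread between culture plates, treated by the study as independent replicates. Deposited columns of BioCycle (p and q values, period, lag, amplitude and replicate scatter) hold the authors' own rhythm test and were not used. The labels give K-NAA as 0.4 mM, and the Methods state another concentration.

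Members were matched by name, and the members and gene lists were chosen with earlier results of these data known. limma 3.58.1 in R 4.3.3 was run on log2(TPM + 0.5) for the 13813 genes that averaged 0.25 TPM or more over 48 libraries, with Benjamini-Hochberg adjustment over all of them. The level model had the condition and the time point as a factor (threshold 0.05). Cosine and sine terms of 24 h were tested within each condition, and their interaction with the condition over both (threshold 0.30). The fits were tested on simulated data. Named genes are the 3 highest members of each family, up to 10 higher and 10 lower by fold change averaging 1 TPM or more, up to 8 called per rhythm fit and up to 3 per outside list. Further members named for their position, or to complete a count or a comparison, were chosen after their values were seen. Positions are from Ensembl 115 (WBcel235), in which all 73 names were found. The alternatives included pseudocounts of 0.1 and 1, no filter or one of 1 TPM, rescaled libraries, a replicate block, quantile normalization, no time term, periods of 20 and 28 h, a drift, time as a factor, and replicates, time points and libraries left out. The promoter motif search was not run.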

Additional observations from a re-analysis of the deposited data

How the results depend on the processing

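The level counts of 29 higher and 4 lower members stayed within 1.5 times under the other pseudocounts, filters and scalings and without the time term. With replicates, time points or libraries left out they ran from 15 to 30 and from 2 to 6, both lowest without replicate 1. Without CT9, CT13 and CT23, chosen after seeing the data, 19 were higher. Of 14 named level calls 9 held throughout and 0 reversed, and *asp-12* was lost most often. Of 8 named calls of the 24 h fit in mock 0 held throughout. The 11 members of the 24 h fit in mock became 1 with a 20 h period, 0 with a linear drift and 6 with time points as a factor, and ran from 0 (without replicate 1 or 2) to 15 (without the CT19 replicate 1 library) when samples were left out. With the drift the fitted peak of *asp-4* moved by over 6 h at a range of 0.071 (adjusted p = 0.97 from limma). The 0 of K-NAA became 1 with quantile normalization, 2 with a 28 h period, 5 with time points as a factor, 1 without CT7 and CT19 and 2 without CT9, CT13 and CT23, and ran from 0 to 3 with samples left out. The difference in rhythm gave 0 throughout. Causes were not tested. Replicate numbers did not pair mock with K-NAA plates: over 12 time points the correlation of same-numbered plates' deviations was -0.066 to 0.18, with 1 over 0.1. Since it compares the conditions at each time point, it cannot show whether a replicate number carries a shared difference across times. In K-NAA replicate 2 was the higher at 12 of 12 time points for *lys-1* and *spp-18*, and at 3 of 12 for *asp-13* and *asp-14*. With a replicate block the counts were 29 higher, 5 lower, 12 in mock, 0 in K-NAA and 0 for the difference. TPM without counts leave the precision of the members under 1 TPM unknown.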
